A study of Homo sapiens with 24 samples.

Results

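The genes described here are 10 members of the family of regulators of G protein signalling (RGS), namely RGS2, RGS3, RGS4, RGS5, RGS9, RGS10, RGS12, RGS16, RGS17 and RGS20, measured in hepatocellular carcinoma (HCC) cells. They were chosen by name, as every probe on the array whose transcript belongs to 1 of these genes, which gave 16 probes. Of the 10 genes, 7 were tested in PLC/PRF/5 and 7 in SNU-449, out of 16684 and 16101 genes tested in those lines. PLC/PRF/5 and SNU-449 are established human HCC cell lines, each derived from a single tumor, so a difference between them is a difference between 2 lines. Each line was starved of serum overnight and then kept for 16 h without treatment (control), with TGFβ1 at 1 ng/mL, with galunisertib (LY2157299) at 10 µM, or with TGFβ1 and galunisertib together, in 3 independent cultures per group and 24 arrays in all. Galunisertib is a small-molecule inhibitor of the type I TGFβ receptor kinase, so the comparisons ask how RGS transcripts responded to the ligand, to the block of its receptor, and to the ligand when its receptor was blocked. No other allele, transgene or agent distinguished the groups.

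RGS proteins switch off signals from G protein-coupled receptors. They bind the activated Gα subunit through their RGS domain and speed up its hydrolysis of GTP, which lets the Gα subunit rejoin the Gβγ dimer. The family is sorted into subfamilies by sequence. The small R4 proteins (RGS2, RGS3, RGS4, RGS5 and RGS16) act on Gαi and Gαq, with RGS2 preferring Gαq. The R7 protein RGS9 works as a complex with the Gβ subunit GNB5 and an anchoring protein, and is known for ending the light response in photoreceptors and for its expression in the striatum. The R12 proteins RGS10 and RGS12 act mainly on Gαi, and the RZ proteins RGS17 and RGS20 are known for acting on Gαz. RGS5 is also known as a gene of pericytes and other vascular mural cells.

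The starts of RGS2 and RGS9, which gave the largest treatment differences of the tested members in PLC/PRF/5 and SNU-449, and of RGS5, the member with the largest difference between the lines, are shown because the treatments act through a receptor whose SMAD effectors bind short DNA elements. Each sequence holds the 250 bases before a RefSeq transcript start on GRCh38.p14, read 5′ to 3′ on the strand of the gene. Capitals mark matches, on either strand, to CAGAC, the core of many SMAD elements, to TGACG, the core of cyclic AMP response elements, to the AP-1 element TGACTCA and to CCAAT, so that a match on the opposite strand reads GTCTG, or CGTCA, or TGAGTCA, or ATTGG. RGS5 is shown with both of its listed starts.
RGS2, chr1:192808789-192809038, plus strand: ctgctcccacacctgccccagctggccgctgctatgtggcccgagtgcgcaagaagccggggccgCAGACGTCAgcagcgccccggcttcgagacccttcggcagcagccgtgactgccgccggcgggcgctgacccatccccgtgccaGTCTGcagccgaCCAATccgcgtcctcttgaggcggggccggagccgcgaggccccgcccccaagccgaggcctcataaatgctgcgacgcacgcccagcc
RGS9, chr17:65137120-65137369, plus strand: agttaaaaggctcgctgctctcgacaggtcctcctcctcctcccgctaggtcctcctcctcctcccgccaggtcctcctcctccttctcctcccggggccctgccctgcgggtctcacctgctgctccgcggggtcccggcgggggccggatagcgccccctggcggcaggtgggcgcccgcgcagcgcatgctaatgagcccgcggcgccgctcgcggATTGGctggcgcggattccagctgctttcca
RGS5 upstream start, chr1:163321736-163321985, minus strand: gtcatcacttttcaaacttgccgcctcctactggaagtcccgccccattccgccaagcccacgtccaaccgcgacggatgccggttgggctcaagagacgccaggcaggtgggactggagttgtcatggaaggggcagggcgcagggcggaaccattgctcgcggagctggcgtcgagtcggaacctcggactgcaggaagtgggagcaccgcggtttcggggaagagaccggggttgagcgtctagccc
RGS5 downstream start, chr1:163202917-163203166, minus strand: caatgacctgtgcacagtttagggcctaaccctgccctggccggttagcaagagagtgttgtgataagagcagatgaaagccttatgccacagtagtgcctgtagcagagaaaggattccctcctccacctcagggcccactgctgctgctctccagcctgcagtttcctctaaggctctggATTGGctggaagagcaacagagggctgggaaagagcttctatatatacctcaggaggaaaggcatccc
The RGS2 window held 2 CAGAC matches, 1 TGACG match and 1 CCAAT match, with 1 of the CAGAC matches and the TGACG match overlapping in the run CAGACGTCA. The RGS9 window and the downstream RGS5 window held 1 CCAAT match each, and the upstream RGS5 window held none of the motifs. Among 35116 promoter windows of this length, 38.0% held CAGAC, 21.2% TGACG, 4.2% TGACTCA and 32.0% CCAAT, so these matches are a description of the letters and no more. The GC content was 72.8% for RGS2, 71.6% for RGS9, 64.4% for the upstream and 53.6% for the downstream RGS5 window. RGS9 itself spans chr17:65137370-65227703, RGS2 chr1:192809039-192812275 and RGS5 chr1:163142299-163321735 in the same annotation.

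A level is given throughout as log2 of the background-corrected signal of a probe over the 75th percentile of its array, so 0 is the 75th percentile itself. The 75th percentile was 144.9 to 261.6 intensity units, and between 41.6% and 49.6% of the probes on an array were well above background. Signals under 5.70% of the 75th percentile were set to that floor (−4.13), and levels at the floor have no order among themselves. Levels of different probes were not set against each other, since each probe has its own brightness. A gene was called where its fold change passed 2 with an unadjusted P under 0.001 in limma. The study stated these thresholds for its figures of changed genes, and a looser P for its supplementary lists of galunisertib genes. An adjusted p (Benjamini-Hochberg over every gene tested) under 0.05 is given as a second, wider rule. The methods' t-test below is a plain two-sample test with equal variances, without the random variance model that the study's methods pair with it. Below, rose and fell are used for differences past the adjusted threshold. Each group held the same array position on all 3 slides, so position and treatment cannot be told apart. The arrays measure RNA of whole cultures, so fewer expressing cells and less RNA per cell cannot be told apart either.

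The cell lines carried the markers of their labels to different degrees. Summed over 8 hepatocyte markers (ALB, APOA1, APOB, SERPINA1, TTR, TF, RBP4 and AHSG), the signal was 717 to 1012 times the 75th percentile in PLC/PRF/5 and 0.991 to 2.81 times in SNU-449, where APOB, TF and AHSG were well above background on no array. Epithelial markers summed to 482 to 716 in PLC/PRF/5 and 53.5 to 95.6 in SNU-449, and mesenchymal markers to 170 to 240 and 463 to 704. Endothelial markers summed to at most 0.350 in either line and leukocyte markers to at most 0.562.

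In control cells, all 7 RGS genes tested over the 24 arrays had less signal in PLC/PRF/5 cells than in SNU-449 cells and all 7 were called, against 34.3% of 17902 genes called in this comparison in either direction and 68.5% past the adjusted threshold. Their median log2 difference was −1.51, beside 0.06 over all genes. With the methods' t-test 5 were called, and RGS3 and RGS20 were not. Each of the 7 but RGS9 had a probe that read well above background in every control culture of either line, which for RGS5 was the dimmest of its probes. The calls of RGS5 and RGS9 came from brighter probes at or near the floor in the PLC/PRF/5 control cultures. Only 5 of the 7 were called on a probe measured in both control groups. In the R4 subfamily, RGS2 was 2.85-fold lower in PLC/PRF/5 (log2 difference −1.51, SE 0.10, adjusted p = 8.5e-11) and RGS3 was 3.05-fold lower (−1.61, SE 0.17, adjusted p = 7.68e-08). RGS5 was at least 481-fold lower on 1 probe and at least 353-fold lower on another, while the dimmest differed by −0.997 and did not pass (adjusted p = 0.0617). RGS9 was at least 71.4-fold lower on 1 probe and at least 9.82-fold lower on the other. The log2 difference of the first was −6.27, and −3.96 with normexp background correction, and it depends on the floor in PLC/PRF/5. The R12 members RGS10 and RGS12 were 2.77-fold and 2.21-fold lower (log2 differences −1.47 and −1.15). RGS20 was 2.03-fold lower (−1.02, adjusted p = 1.69e-05), just past the fold threshold. Leaving out PLC/PRF/5 control culture 1 took the RGS20 difference to −0.91 and leaving out SNU-449 control culture 3 took it to −0.94, each under the fold threshold. RGS12 and RGS20 also stayed under it when the background was corrected by normexp (−0.61 and −0.80).

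**Figure D1:**
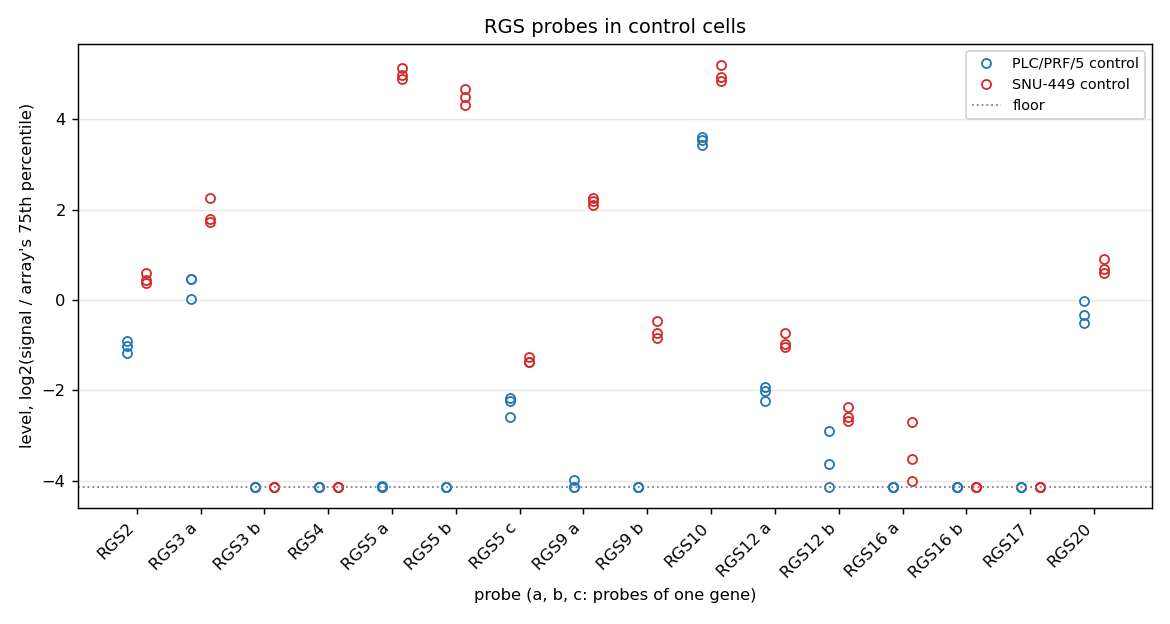
Level of each of the 16 RGS probes in the untreated cultures, as log2 of signal over the 75th percentile of the array, with 3 control arrays of PLC/PRF/5 in blue and 3 of SNU-449 in red; letters a, b and c name different probes of 1 gene and the dotted line is the floor at −4.13. The points of RGS5 probes a and b and of both RGS9 probes lie at or near the floor in PLC/PRF/5 and far above it in SNU-449, while RGS4 and RGS17 lie at the floor in both lines.

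RGS2 gave the largest log2 differences of the 7 tested members in PLC/PRF/5, down with TGFβ and up with galunisertib. It was printed on 10 spots per array, and the SD among the spots of 1 array was 0.05 to 0.17 on the log2 scale. Its level in PLC/PRF/5 was −1.18, −1.02 and −0.91 in the control cultures (mean −1.04 ± 0.14 SD, n = 3). With TGFβ it was −1.92, −1.56 and −1.74 (−1.74 ± 0.18). The TGFβ cultures all lay under the control cultures. With galunisertib it was 0.12, 0.05 and 0.31 (0.16 ± 0.14), and with TGFβ and galunisertib together 0.32, 0.37 and 0.20 (0.30 ± 0.09). The 6 cultures given galunisertib all lay above the 6 without it, and the 2 groups with galunisertib overlapped each other.

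RGS2 fell by 0.70 on the log2 scale with TGFβ in PLC/PRF/5 (1.63-fold, SE 0.11, adjusted p = 0.00261) and was lower on all 3 slides. It rose 2.30-fold with galunisertib alone (log2 difference 1.20, 95% interval 0.95 to 1.45, adjusted p = 0.000662), which was called. When galunisertib was added to TGFβ it rose 4.11-fold (2.04, interval 1.79 to 2.29, adjusted p = 1.19e-06), with 2.24, 1.93 and 1.94 on the 3 slides. Under galunisertib the TGFβ difference was 0.13 (interval −0.11 to 0.38, adjusted p = 0.453). The response to TGFβ with the inhibitor differed from that without it by 0.84 (interval 0.49 to 1.19, adjusted p = 0.0123). The TGFβ difference missed the adjusted threshold under median scaling (−0.66, adjusted p = 0.102), without scaling (−0.45, 0.456) and with the methods' t-test (0.0535), and was −0.44 with normexp. The interaction missed it under median scaling and without scaling and was 0.52 with normexp. With normexp background correction the rise with galunisertib alone was 0.86 on the log2 scale and no longer passed the fold threshold, while its adjusted p was 0.000183.

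In SNU-449, RGS2 rose with galunisertib too, and less so. Its level was 0.37, 0.45 and 0.61 in control cultures (0.47 ± 0.12) and 0.29, 0.34 and 0.31 with TGFβ (0.31 ± 0.02). With galunisertib it was 1.21, 0.95 and 1.16 (1.11 ± 0.14), and with both agents 0.75, 0.63 and 0.78 (0.72 ± 0.08). The 4 groups did not overlap, in the order TGFβ, control, both agents, galunisertib. RGS2 rose by 0.63 with galunisertib (SE 0.11, adjusted p = 0.00457) and by 0.40 when galunisertib was added to TGFβ (adjusted p = 0.0163), and neither was called. The TGFβ differences were −0.16 (adjusted p = 0.366) without and −0.39 (adjusted p = 0.0798) with galunisertib. The rise with galunisertib alone missed the adjusted threshold with median scaling (adjusted p = 0.183), without scaling (0.153), with limma on the 2 groups alone (0.0817) and with the methods' t-test (0.110). The RGS2 rise on top of TGFβ missed the adjusted threshold when TGFβ culture 1 or 3, or combination culture 1 or 3, was left out (0.37 to 0.40, adjusted p = 0.0507 to 0.0571). It was 0.22 with median scaling (adjusted p = 0.602) and 0.23 without scaling (adjusted p = 0.396).

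**Figure D2:**
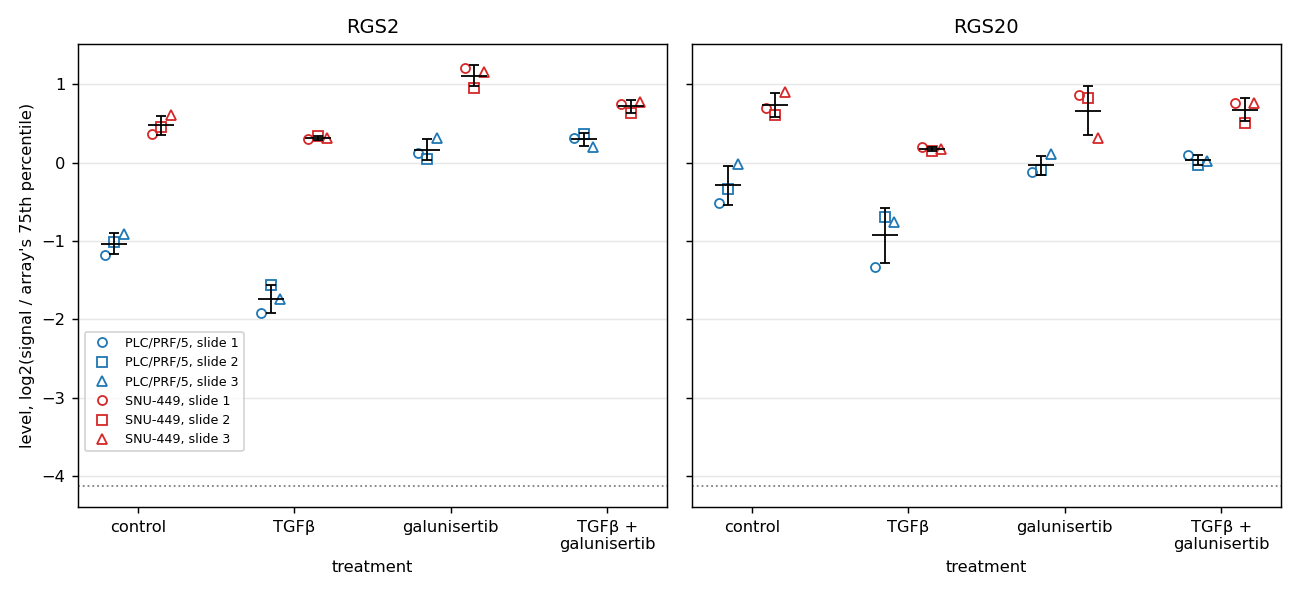
Levels of RGS2 and RGS20 on every array, as log2 of signal over the 75th percentile, by treatment, with PLC/PRF/5 in blue and SNU-449 in red, the marker shape giving the slide and black bars the mean ± SD of 3 cultures. In PLC/PRF/5 both genes are lowest with TGFβ, and RGS2 is above its control level in all 6 cultures given galunisertib.

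RGS3, an R4 protein that acts on Gαi and Gαq, was measured in both lines by 1 of its 2 probes. RGS3 in PLC/PRF/5 was 0.47, 0.45 and 0.03 in control cultures and 0.06, 0.44 and 0.12 with TGFβ, and all 4 groups overlapped. In SNU-449 it was 1.73, 2.25 and 1.80 in control cultures (1.93 ± 0.28) and 2.43, 2.50 and 2.47 with TGFβ (2.47 ± 0.04). The TGFβ cultures of SNU-449 lay above all others of that line, yet the difference of 0.54 missed the adjusted threshold (SE 0.15, adjusted p = 0.0523). Without control culture 2, the highest control, it was 0.70 with an adjusted p of 0.0132, and with the slide as a block the adjusted p was 0.0335. No RGS3 difference within PLC/PRF/5 passed either rule. The other RGS3 probe was well above background on 2 of 24 arrays.

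RGS4 and RGS16 gave almost no signal. The RGS4 probe was well above background on none of the 24 arrays. RGS16 was well above background on 3 arrays with 1 probe, all of SNU-449, and on none with the other. The RGS16 levels in the SNU-449 control cultures were −2.70, −4.01 and −3.52, and no test was made for either gene.

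RGS5, the mural cell gene of the R4 subfamily, was bright in SNU-449 and near the floor in PLC/PRF/5 on 2 of its 3 probes. Those 2, to the same transcript, were each well above background on 1 of 12 PLC/PRF/5 arrays and on all 12 SNU-449 arrays. In SNU-449 the brighter probe read 4.90, 4.98 and 5.13 in control cultures (5.00 ± 0.12) and 5.43, 5.45 and 5.68 with TGFβ (5.52 ± 0.14). With galunisertib it read 4.86, 4.48 and 4.99 (4.77 ± 0.27), and with both agents 5.32, 5.01 and 4.93 (5.09 ± 0.21). The 3 TGFβ cultures lay above every other SNU-449 culture, since their lowest level of 5.43 exceeded the highest of the rest, 5.32. The TGFβ difference was 0.52 (interval 0.18 to 0.86, adjusted p = 0.0599) and did not pass, and the difference when galunisertib was added to TGFβ was −0.43 (adjusted p = 0.0812). The TGFβ difference passed with normexp (0.60, adjusted p = 0.0232) and with limma on the 2 groups alone (adjusted p = 0.0268), and the difference on adding galunisertib passed when combination culture 1 was left out (−0.55, adjusted p = 0.0481).

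The third RGS5 probe, to another transcript of the gene, was lower in treated PLC/PRF/5 cells. It was dim but well above background on all 12 arrays there, at −2.17, −2.23 and −2.59 in control cultures (−2.33 ± 0.23) and at −2.71, −2.89 and −2.85 with TGFβ (−2.81 ± 0.09). It was −2.94, −2.70 and −2.79 with galunisertib and −2.88, −2.85 and −3.01 with both agents. All treated cultures lay under the controls. RGS5 by this probe fell by 0.48 with TGFβ (adjusted p = 0.0204) and by 0.48 with galunisertib (adjusted p = 0.0412), comparisons that share the control arrays. With no filter on dim probes another RGS5 probe stood for the gene and the TGFβ difference was 0.11 (adjusted p = 0.702). Without scaling the TGFβ difference was −0.23 (adjusted p = 0.700) and in the authors' table −0.32 (0.766). The galunisertib difference was −0.17 with normexp (adjusted p = 0.469), −0.01 with no filter on dim probes and −1.15 in the authors' table (0.228). Each fall missed the adjusted threshold when any of 4 single cultures was left out. For TGFβ these were control cultures 1 and 2 (−0.40 and −0.43) and TGFβ cultures 2 and 3 (−0.45 and −0.47), and for galunisertib control cultures 1 and 2 (−0.40 and −0.43) and galunisertib cultures 1 and 3 (−0.41 and −0.49). In SNU-449 this probe went the other way from the bright ones with TGFβ. It read −1.26, −1.37 and −1.37 in control cultures and −1.72, −1.65 and −1.48 with TGFβ, which was lower on all 3 slides (−0.28, SE 0.60, adjusted p = 0.852). It read −1.41, −1.18 and −4.13, the floor, with galunisertib and −1.21, −1.495 and −1.52 with both agents, and no difference of this probe within SNU-449 passed either rule. The difference of −0.997 between untreated lines had an SE of 0.45 in the fit that holds the array at the floor.

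**Figure D3:**
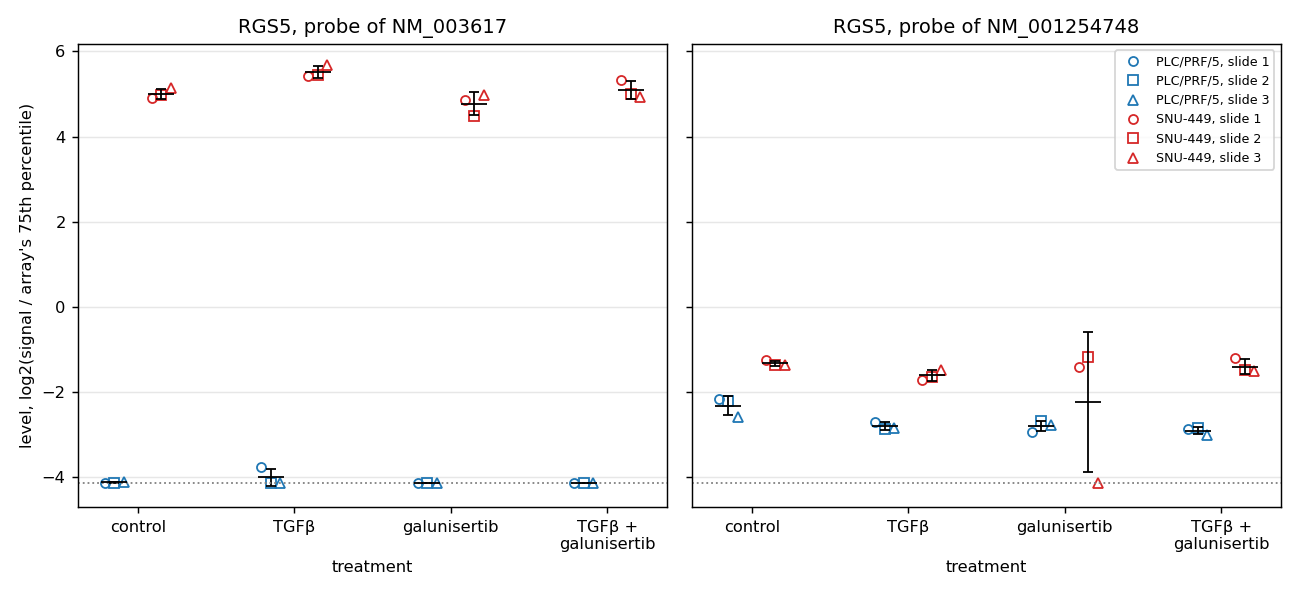
Levels of the brightest RGS5 probe (left) and of the dim probe to another transcript (right) on every array, as log2 of signal over the 75th percentile, by treatment, with PLC/PRF/5 in blue, SNU-449 in red, marker shapes for slides, black bars for the mean ± SD of 3 cultures and a dotted line for the floor. The brightest probe sits at or near the floor in PLC/PRF/5 and between 4 and 6 in the SNU-449 cultures, whereas the other is dim in both lines. The remaining RGS5 probe is not drawn.

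Mural cell markers were read beside RGS5. Summed over PDGFRB, MCAM, NOTCH3, KCNJ8, ABCC9 and ACTA2, they came to 14.5 to 28.5 times the 75th percentile in SNU-449, where 5 of 6 were well above background on all 12 arrays. Those of PLC/PRF/5 came to 2.81 to 4.78, with MCAM, KCNJ8, ABCC9 and ACTA2 on no array. In control cells these 4 were called lower in PLC/PRF/5, as RGS5 was on its bright probes, and the other two, NOTCH3 (at least 28.8-fold) and PDGFRB (2.02 on the log2 scale), were called higher there. Within SNU-449 the sum was 23.7 to 28.5 in control cultures, 23.97 to 25.6 with TGFβ, 14.5 to 25.6 with galunisertib and 24.6 to 27.7 with both agents. Their part in the RGS5 difference was not tested.

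RGS9 gave the largest log2 differences of the 7 tested members in SNU-449, up with TGFβ and down with galunisertib. The study also named it among genes chosen on these same samples, as it did RGS2 and RGS5, so its direction here is not independent evidence. On the brighter probe the control cultures of SNU-449 read 2.10, 2.18 and 2.26 (2.18 ± 0.08) and the TGFβ cultures 2.98, 2.95 and 2.89 (2.94 ± 0.05). The galunisertib cultures read 1.01, 0.83 and 1.18 (1.00 ± 0.18), and those with both agents 2.02, 1.93 and 1.57 (1.84 ± 0.24). The 4 groups did not overlap, in the order galunisertib, both agents, control, TGFβ. The second probe, to another RGS9 transcript, read −0.47, −0.84 and −0.72 in control cultures and −0.11, −0.13 and −0.24 with TGFβ. It read −2.30, −1.82 and −1.75 with galunisertib and −1.005, −0.90 and −1.62 with both agents. Its groups stood in the same order and did not overlap either.

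In SNU-449, RGS9 rose 1.69-fold with TGFβ (log2 difference 0.76, SE 0.13, interval 0.47 to 1.04, adjusted p = 0.00417) and was not called. It fell 2.26-fold with galunisertib alone (−1.18, interval −1.47 to −0.89, adjusted p = 0.000805) and 2.15-fold when galunisertib was added to TGFβ (−1.10, interval −1.39 to −0.81, adjusted p = 0.000254), and both were called. The second probe gave −1.28 (adjusted p = 0.00773) and −1.02 (adjusted p = 0.00801). With galunisertib present, TGFβ still raised RGS9 by 0.83 (adjusted p = 0.0124), with 1.01, 1.10 and 0.39 on the 3 slides, and the second probe by 0.78 (adjusted p = 0.105). The response to TGFβ with the inhibitor differed from that without it by 0.08 (interval −0.33 to 0.48, adjusted p = 0.859), so a difference beyond that interval was not seen. Without combination culture 3, the fall on adding galunisertib to TGFβ was 0.97 on the log2 scale and missed the fold threshold. The fall with galunisertib alone had an adjusted p of 0.0613 with the methods' t-test. The rise with TGFβ under galunisertib missed the adjusted threshold with median scaling (0.71, adjusted p = 0.219). It also missed it with limma on the 2 groups alone (adjusted p = 0.227) and with the methods' t-test (adjusted p = 0.270).

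RGS9 stayed near the floor in PLC/PRF/5. The brighter probe was at −3.99, −4.13 and −4.13 in control cultures, where none of the 3 was well above background, and at −3.70, −3.85 and −3.50 with TGFβ, where all 3 were. All 6 cultures given galunisertib were at the floor. RGS9 entered the tests of this line only because the TGFβ cultures read above background, so its log2 differences of 0.40 with TGFβ and −0.45 when galunisertib was added to TGFβ are given as a description. Both depended on the floor and the scaling. With the floor lowered by 1 on the log2 scale they were 1.02 and −1.41, with it raised by 1 both were 0, and with median scaling they were 0.24 and −0.24. The second probe was at the floor on all 12 PLC/PRF/5 arrays.

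**Figure D4:**
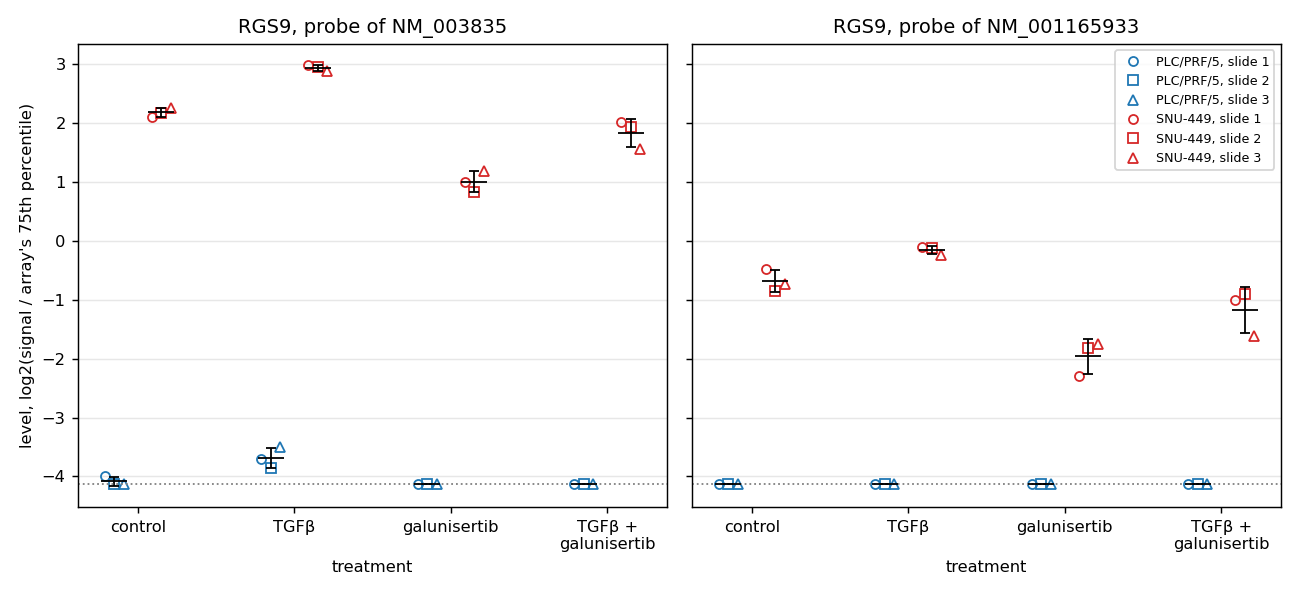
Levels of both RGS9 probes on every array, as log2 of signal over the 75th percentile, by treatment, with PLC/PRF/5 in blue, SNU-449 in red, marker shapes for slides, black bars for the mean ± SD of 3 cultures and a dotted line for the floor. In SNU-449 the groups stand in the same order on both probes, from 1.00 with galunisertib to 2.94 with TGFβ on the brighter probe (left). PLC/PRF/5 lies at or just above the floor.

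RGS10 and RGS12 are the members described here that belong to the R12 subfamily. RGS10, a small protein made of little more than its RGS domain, had mean levels of 3.53 (control), 3.71 (TGFβ), 3.61 (galunisertib) and 3.73 (both agents) in PLC/PRF/5 and of 5.00, 5.13, 5.34 and 5.17 in SNU-449. No RGS10 difference within a line passed either rule. The nearest was the 0.34 higher level with galunisertib in SNU-449 (interval 0.12 to 0.56, adjusted p = 0.0626), and without control culture 3 it was past the threshold with an adjusted p of 0.0249. RGS12, a large scaffold that also binds inactive Gα through a GoLoco motif, had mean levels of −2.06, −2.19, −1.65 and −2.39 in PLC/PRF/5 and −0.91, −0.86, −0.57 and −1.05 in SNU-449, given in that same order of treatments. RGS12 in PLC/PRF/5 with both agents was 1.67-fold lower than with galunisertib alone (−0.74, interval −1.03 to −0.44, adjusted p = 0.0156). Without galunisertib culture 1 the adjusted p was 0.0521, and with normexp the difference was −0.22 (adjusted p = 0.219). The matching difference in SNU-449 was −0.48 (adjusted p = 0.206). A second RGS12 probe was well above background on 6 of 12 PLC/PRF/5 arrays and on all 12 of SNU-449, with means there of −2.55 in control, −2.37 with TGFβ, −2.79 with galunisertib and −2.74 with both agents. With galunisertib in SNU-449 it was lower on all 3 slides (−0.40, −0.29 and −0.03), whereas the brighter probe was higher on all 3 (0.11, 0.58 and 0.34). Neither difference passed either rule, and in SNU-449 no other treatment difference of the second probe did.

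RGS20, an RZ protein, fell with TGFβ in both lines. Its PLC/PRF/5 level was −0.52, −0.34 and −0.02 in control cultures (−0.29 ± 0.25) and −1.33, −0.70 and −0.76 with TGFβ (−0.93 ± 0.35). It was −0.12, −0.09 and 0.10 with galunisertib and 0.10, −0.03 and 0.02 with both agents. In SNU-449 it was 0.69, 0.61 and 0.91 in control cultures (0.73 ± 0.15) and 0.19, 0.15 and 0.17 with TGFβ (0.17 ± 0.02). It was 0.86, 0.83 and 0.31 with galunisertib and 0.76, 0.50 and 0.75 with both agents. In each line the TGFβ cultures lay under all other cultures of that line. RGS20 fell by 0.64 with TGFβ in PLC/PRF/5 (adjusted p = 0.032) and by 0.56 in SNU-449 (adjusted p = 0.0384). Adding galunisertib to TGFβ raised it 1.95-fold in PLC/PRF/5 (0.96, SE 0.17, adjusted p = 0.00143) and by 0.50 in SNU-449 (adjusted p = 0.0433). No RGS20 difference passed for galunisertib alone, at 0.26 in PLC/PRF/5 and −0.07 in SNU-449.

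The RGS20 differences rested on few arrays. In PLC/PRF/5 the fall with TGFβ missed the adjusted threshold without control culture 2 or 3 or TGFβ culture 1 or 3, ranging from −0.75 to −0.44 over the single cultures left out. In SNU-449 it missed the threshold whichever control or TGFβ culture was left out (−0.63 to −0.48), and with the slide as a block (adjusted p = 0.0653). The PLC/PRF/5 fall was −0.39 without scaling (adjusted p = 0.573). The SNU-449 rise on adding galunisertib missed it without any TGFβ culture or without combination culture 1 or 3, and with the slide as a block (adjusted p = 0.069), and it was 0.32 both with median scaling (adjusted p = 0.482) and without scaling (0.306). The PLC/PRF/5 rise passed the adjusted threshold under every alternative run, with 0.57 under normexp, and passed the fold threshold as well without TGFβ culture 2 (1.08) or 3 (1.05). RGS17, the other RZ protein among the members described here, was well above background on none of the 24 arrays.

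Over the 7 tested members, at most 1 was called in a treatment comparison within a line, and up to 4 passed the adjusted threshold. RGS9 is counted in PLC/PRF/5 although it was tested there only through its TGFβ cultures. With TGFβ in PLC/PRF/5 none was called, beside 1.11% of all 16684 genes, and 4 passed the adjusted threshold (RGS9 higher, and RGS2, RGS5 and RGS20 lower), beside 13.6%. With galunisertib in PLC/PRF/5, 1 was called (RGS2), beside 0.348%, and 2 passed the adjusted threshold, beside 5.39%. When galunisertib was added to TGFβ in PLC/PRF/5, 1 was called (RGS2), beside 3.12%, and 3 passed the adjusted threshold (RGS2 and RGS20 higher, RGS9 lower), beside 39.1%. With TGFβ under galunisertib in that line none was called, beside 0.288%, and 1 passed the adjusted threshold (RGS12), beside 8.52%. For the interaction none was called, beside 1.2%, and 1 passed (RGS2), beside 8.85%. In these 3 comparisons without a call in limma, 5, 1 and 5 members had an unadjusted P under 0.05, in the order given. The methods' t-test, run for the first 2, called none either. The share of all genes with such a P is not given, here or below, so these counts cannot be weighed against it.

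With TGFβ in SNU-449 none of the 7 was called, beside 2.31% of all 16101 genes, and 2 passed the adjusted threshold (RGS9 higher, RGS20 lower), beside 10.3%. With galunisertib in SNU-449, 1 was called (RGS9, lower), beside 1.13%, and 2 passed the adjusted threshold (RGS9 lower, RGS2 higher), beside 7.27%. When galunisertib was added to TGFβ, 1 was called (RGS9, lower), beside 3.79%, and 3 passed the adjusted threshold (RGS9 lower, RGS2 and RGS20 higher), beside 16.9%. With TGFβ under galunisertib none was called, beside 0.677%, and 1 passed (RGS9), beside 1.86%. For the interaction none was called, beside 1.35%, and none passed the adjusted threshold, beside 2.55%, while 1 member (RGS20) had an unadjusted limma P under 0.05. In the other two comparisons without a call, 4 members had such a P with TGFβ and 3 with TGFβ under galunisertib, and the methods' t-test called none in either.

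**Figure D5:**
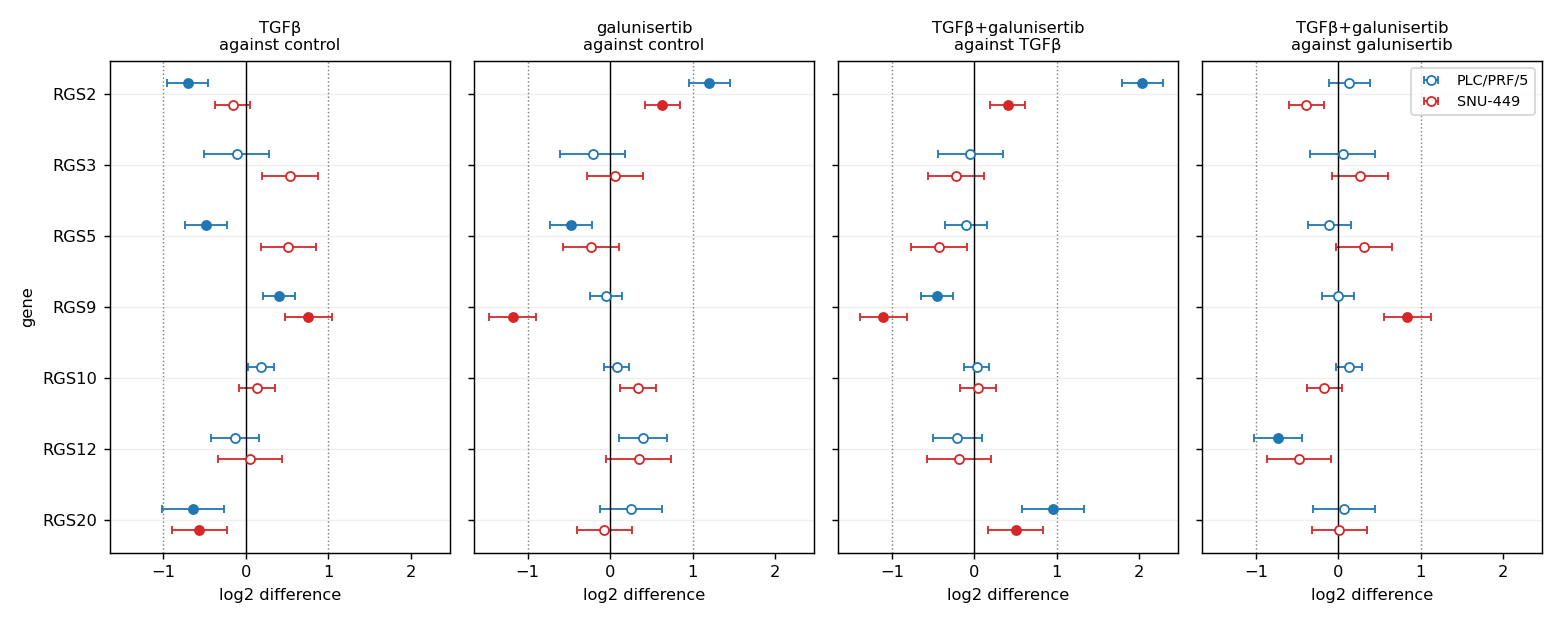
Difference of each tested RGS member in 4 treatment comparisons, as the limma log2 difference with its 95% interval, PLC/PRF/5 in blue and SNU-449 in red; filled points have an adjusted p under 0.05 and dotted lines mark a fold change of 2. RGS2 lies right of the dotted line in both comparisons of galunisertib in PLC/PRF/5, and RGS9 lies left of it in both in SNU-449. RGS5 is drawn by its dim probe in PLC/PRF/5 and by its brightest probe in SNU-449, so its points do not compare the lines. The RGS9 points of PLC/PRF/5 come from levels at or near the floor.

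The difference between the lines was tested itself. For the effect of galunisertib, 1 member was called, beside 1.54% of 17902 genes, and 2 passed the adjusted threshold, beside 5.87%. The RGS9 change in SNU-449 minus that in PLC/PRF/5 was −1.13 (adjusted p = 0.000159), although in PLC/PRF/5 it was not well above background in either group, so no fold can be given for that line and the value is close to the SNU-449 fall of −1.18 alone. The RGS9 difference was −0.98 (adjusted p = 0.0931) with the floor lowered by 1 on the log2 scale and −0.11 (adjusted p = 0.963) in the authors' normalized table. RGS2 rose by 0.57 less in SNU-449 (log2 difference −0.57, interval −0.87 to −0.26, adjusted p = 0.0257). For the effect of TGFβ none was called in limma, beside 2.29%, 4 had an unadjusted P under 0.05, and 1 passed the adjusted threshold, beside 8.62%: RGS2 differed by 0.54 (interval 0.24 to 0.85, adjusted p = 0.0228), being lower with TGFβ in PLC/PRF/5. The RGS9 response to TGFβ differed by 0.36 (adjusted p = 0.182). Both RGS2 differences missed the adjusted threshold when single cultures were left out, the first ranging from −0.63 to −0.49 and the second from 0.45 to 0.63. With normexp they were −0.30 (adjusted p = 0.219) and 0.30 (adjusted p = 0.243). For galunisertib these were PLC/PRF/5 control culture 1 (−0.49), PLC/PRF/5 galunisertib culture 3 (−0.49), SNU-449 control culture 3 (−0.50) and SNU-449 galunisertib culture 2 (−0.49). For TGFβ they were PLC/PRF/5 control cultures 2 (0.53) and 3 (0.48), PLC/PRF/5 TGFβ culture 1 (0.45), SNU-449 control culture 1 (0.49) and SNU-449 TGFβ culture 2 (0.53).

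Other genes named RGS, with AXIN1 and AXIN2, were read as a list of 13, of which 4 were tested in PLC/PRF/5 and 5 in SNU-449. The list does not hold every further gene with an RGS domain. None was called in a treatment comparison within a line, beside 0.288% to 3.79% of all genes. In SNU-449, AXIN2, which holds an RGS-like domain and belongs to the Wnt pathway, fell by 0.55 with TGFβ (adjusted p = 0.0177), rose by 0.48 with galunisertib (adjusted p = 0.0452) and rose by 0.82 when galunisertib was added to TGFβ (adjusted p = 0.00125). In PLC/PRF/5, RGS19 rose by 0.44 when galunisertib was added to TGFβ (adjusted p = 0.00184). In control cells RGS14 and AXIN1 were higher in PLC/PRF/5 (2.62 and 2.80), AXIN2 was lower (−2.72), and RGS7, the R7 relative of RGS9, was at least 18.8-fold lower with a wide error (SE 1.01). Of the 5 listed partners of R7 proteins, GNB5 was tested in both lines and fell by 0.42 in SNU-449 when galunisertib was added to TGFβ (adjusted p = 0.0251). RGS9BP, the photoreceptor anchor, differed between the lines by −1.75 (SE 0.81, adjusted p = 0.0629), and GPR158 was at least 5.62-fold lower in PLC/PRF/5.

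Few genes of the G proteins themselves were called under treatment, and few of all genes were, at 0.288% to 3.79% over the comparisons within a line. Of 7 tested Gαi and Gαq subunits, GNAI1 alone was called under treatment. It rose by 1.11 when galunisertib was added to TGFβ in PLC/PRF/5, where 3.12% of all genes were called. No Gβ, Gγ, Gαs or Gα12 subunit was called under treatment in either line. When galunisertib was added to TGFβ, 5 of 10 tested Gβ and Gγ genes passed the adjusted threshold in SNU-449, beside 16.9% of all genes, with GNG11 higher (0.75) and GNG8 (−0.85), GNG4 (−0.71), GNG5 (−0.65) and GNB2 (−0.41) lower, and 5 of 11 did in PLC/PRF/5, beside 39.1%. Between untreated lines, GNAZ, the Gα substrate of the RZ proteins, was lower in PLC/PRF/5 (−3.41, SE 0.13), GNG11 was at least 425-fold lower and GNB4 at least 118-fold higher. Among the effectors, the adenylyl cyclase ADCY7 rose by 2.18 with TGFβ in SNU-449 (SE 0.47) and fell by 2.34 when galunisertib was added to TGFβ. Among receptor kinases and arrestins, GRK5 rose by 1.25 with TGFβ in SNU-449 (SE 0.11) and fell by 1.39 when galunisertib was added.

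Receptors upstream of these G proteins were called in some comparisons within a line and not in others. Of 32 listed Gi- and Gq-coupled receptors, 13 were tested in PLC/PRF/5 and 16 in SNU-449. With TGFβ under galunisertib none was called in limma in either line, beside 0.288% and 0.677% of all genes. With galunisertib alone 1 was called higher in each line, beside 0.348% and 1.13%. For the interaction 1 was called higher in PLC/PRF/5, beside 1.2%, and 5 were called lower in SNU-449, beside 1.35%. With TGFβ in PLC/PRF/5, 2 of the 13 were called beside 1.11% of all genes, both higher, the oxytocin receptor OXTR (1.39) and the sphingosine 1-phosphate receptor S1PR3 (1.15), and their median difference was 0.01 beside −0.03 over all genes. When galunisertib was added there, 4 were called higher and 2 lower, beside 3.12%, with F2RL1 at 1.60, OXTR at −1.76 and S1PR3 at −1.38. With TGFβ in SNU-449, 4 of the 16 were called higher and 1 lower, beside 2.31% (median 0.42 beside 0.02), led by the nucleotide receptor P2RY2 (2.79), the lysophosphatidic acid receptor LPAR5 (at least 4.81-fold) and S1PR5 (1.88). When galunisertib was added there, 1 was called higher and 5 lower, beside 3.79% (median −0.46 beside 0.01), with P2RY2 at least 8.34-fold lower, F2R at −2.77 and LPAR5 at least 4.41-fold lower.

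Immediate TGFβ target genes gave the measure of the pathway in the same cultures. Of 10 listed, 8 were tested in PLC/PRF/5, where 2 were called higher with TGFβ beside 1.11% of all genes in either direction, PMEPA1 (at least 4.54-fold) and SKIL (1.63). All 10 were tested in SNU-449, where 5 were called higher with TGFβ beside 2.31%, among them TGFBI (1.58) and JUNB (1.54), and 7 were called lower with galunisertib alone beside 1.13%, led by PMEPA1 (−3.50) and SKIL (−2.62). With TGFβ under galunisertib in SNU-449, 5 of the 10 were called higher, beside 0.677%, and in PLC/PRF/5 none of the 8 was called in limma, beside 0.288%.

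Across the 24 arrays, after the mean of each line was subtracted, the genes whose levels ran closest to RGS9 were CYTH1 (Pearson r = 0.969), LHX1 (0.967) and GADD45B (0.966), among 17824 genes compared. For RGS2 they were PSMG3 (0.970), EBNA1BP2 (0.967) and SOD2 (0.966), and for RGS5 GPNMB (0.901), LOC101927253 (0.900) and RAMP1 (0.898). The arrays share treatments, slides and scaling, so these values describe likeness only.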

How the data were processed

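Total RNA of 24 cultures was labelled with Cy3 and hybridised to 1-colour Agilent SurePrint G3 arrays. The authors scanned the arrays and extracted them with Agilent Feature Extraction 10.7.3.1, per the file headers. The deposited scanner files hold background-subtracted intensity per spot, which was used as the main measurement. The deposited table of the authors holds normalized log2 values for 30913 probes, 12 of them to the RGS genes. Each of its probes is centred on its median over the arrays, array medians run from −0.06 to 0.06, and its scaling was not given in the sources used here. It served as an alternative. No column lacked a sample (0 columns).

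Control spots and 111 to 216 outlier spots per array were left out, and no spot was saturated. Spots of a probe were averaged, the processed signal was divided by the 75th percentile of the array, floored at 5.70% of it (the weakest signal well above background on each array, taken as a median) and taken as log2. Of 58201 probes, 31104 were named through RefSeq, 10719 as long noncoding RNAs and 16378 not at all. Tests were limited to probes that all arrays of 1 or more groups read well above background, and the brightest of them stood for its gene. limma 3.58.1 (R 4.3.3) was fitted to the 12 arrays of a line, or to all 24 for comparisons of lines, with the 4 or 8 groups sharing 1 estimate of the spread. P-values therefore measure the spread between 3 independent cultures per group. The script was tested on simulated data. Python 3.11.15 with pandas 2.3.3 was used for the rest. Probes are named with their design genes, which can be old, and promoter windows come from RefSeq (GRCh38.p14), which holds a window for 9 of the 10 genes.

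The members and gene lists were chosen with earlier results of these data known. The text names all members with every probe, at most the 3 largest called changes per list and comparison, the 3 genes most like RGS9, RGS2 and RGS5, and long noncoding RNAs named after a member. AXIN2, RGS19, GNB5, RGS9BP and the Gβ and Gγ genes lie outside that rule in the comparisons where they were not called and were named after their values were seen. The values of 1 immediate TGFβ target gene that the rule would name are not reported here, and the counts of that list include it. Replicate numbers mark the slide, per the file headers. Deviations of samples with the same number correlated by 0.17 to 0.30 for TGFβ against control in PLC/PRF/5 and 0.13 to 0.22 in SNU-449, and by −0.03 to 0.08 for galunisertib against control in SNU-449. The alternatives were other background corrections, scalings, floors and filters, the authors' table, the methods' t-test (plain, equal variances, without their random variance model), the replicate block and leaving out each culture.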

Additional observations from a re-analysis of the deposited data

Results flagged for a closer look

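The effect of galunisertib on RGS9 differed between the lines by −1.13 on the log2 scale (adjusted p = 0.000159), with 2.18 in control and 1.00 with galunisertib in SNU-449 and levels at or near the floor in PLC/PRF/5. A fall could not be seen from that floor, so this test cannot decide whether the lines responded differently. The RGS9 value was −0.98 (adjusted p = 0.0931) with the lower floor and −0.11 (adjusted p = 0.963) in the authors' table. The effect of galunisertib on RGS2 differed by −0.57 (adjusted p = 0.0257), with rises of 1.20 in PLC/PRF/5 and 0.63 in SNU-449. The effect of TGFβ on RGS2 differed by 0.54 (adjusted p = 0.0228), with −0.70 in PLC/PRF/5 and −0.16 in SNU-449. For lnc-RGS9-1, a long noncoding RNA named after its neighbour, the effect of galunisertib differed by −1.75 (adjusted p = 0.00993) on its only probe with signal. No alternative was run for that lnc-RGS9-1 difference. Each of these was noted because the limma test of the difference between lines passed the adjusted threshold, and what lies behind them was not tested.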

How the results depend on the processing

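Over the alternatives, 276 counts of called RGS genes were recomputed and 12 moved by over 1.5 times. With normexp, the count was 0 for galunisertib against control in PLC/PRF/5 (RGS2 at 0.86) and 0 for the galunisertib effect between lines, which was also 0 with the floor lowered by 1 on the log2 scale, with probes well above background on every array, and in the authors' table. For galunisertib added to TGFβ in PLC/PRF/5 it was 2 with median scaling, quantile normalization or that lower floor, and ranged from 1 to 2 over the cultures left out (RGS20 without TGFβ culture 2 or 3). In SNU-449 the same comparison gave 0 with the methods' t-test and 0 to 1 over the cultures left out (RGS9 at −0.97 without combination culture 3). Of 91 member results, 29 passed the adjusted threshold and 12 of these stayed past it under every alternative run. Among them were all 7 differences between untreated lines, RGS2 with galunisertib in PLC/PRF/5, and RGS9 with TGFβ in SNU-449. Of the differences between untreated lines, those of RGS5 and RGS9 could not be run with probes well above background on every array. Those of RGS3, RGS12 and RGS20 lost their call under some alternatives. Of 1921 values, 1778 stayed on their side of the adjusted threshold, 63 values that passed it in neither setting changed sign, 116 lost the adjusted threshold and 26 gained it. RGS5 with TGFβ in PLC/PRF/5 reversed to 0.11 with no filter on dim probes, where another probe stands for it. Median scaling cost 15 results the threshold, no scaling 14, the methods' t-test 9, normexp 8 and the normalized values of the authors 11. With the replicate block (the slide), 3 results lost the threshold, RGS5 with galunisertib in PLC/PRF/5 (adjusted p = 0.0512) and RGS20 in SNU-449 with TGFβ (0.0653) and on adding galunisertib (0.069), and 2 gained it, RGS3 with TGFβ in SNU-449 (0.0335) and its difference between lines (0.0408). It changed no other member's call. Over all genes, counts past the adjusted threshold moved most with scaling and the test used. TGFβ against control gave 2263 in PLC/PRF/5 and 454 with median scaling, and 1664 and 672 in SNU-449. Galunisertib against control gave 899 and 36 without scaling in PLC/PRF/5, and 1170 and 88 with the methods' t-test in SNU-449. Dim signal limits RGS9 in PLC/PRF/5 and RGS4, RGS16 and RGS17 in both lines, whose levels are bounded by background.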

Other observations

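The array holds probes for long noncoding RNAs that are named after RGS genes, and 2 such RNAs were tested. lnc-RGS9-1 gave signal only on the probe read here, and its other probes were at the floor in every group. On that probe it was at 0.05 ± 0.07 (SD, n = 3) in the SNU-449 control cultures, 0.42 with TGFβ and −0.13 with both agents. With galunisertib it read −1.97, −3.04 and −1.26. The galunisertib cultures lay under all others of that line. It fell by 2.14 on the log2 scale with galunisertib (SE 0.35, adjusted p = 0.00641) and was 1.96 higher with both agents than with galunisertib alone (adjusted p = 0.0225), and both were called. The fall was no longer past the adjusted threshold with limma on the 2 groups alone (adjusted p = 0.0993) or with the methods' t-test (adjusted p = 0.173). Both differences rest on the same scattered galunisertib cultures. The alternatives were run for this RNA only for the fall, so its other differences were not checked against them. In control cells lnc-RGS9-1 was lower in PLC/PRF/5 (−1.67, adjusted p = 2.16e-05). In PLC/PRF/5 it fell by 0.67 when galunisertib was added to TGFβ (adjusted p = 0.00302) and was not called. In control cells of PLC/PRF/5, lnc-RGS5-1 was 1.31 higher than in those of SNU-449 (adjusted p = 1.02e-08), the opposite side from the bright RGS5 probes, and in SNU-449 it rose by 0.78 when galunisertib was added to TGFβ (adjusted p = 0.00363).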
